A study of Rattus norvegicus with 36 samples.

Results

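Crem, the gene of the cAMP response element modulator, and 9 further genes of the stimulus-induced transcription programme were followed in rat liver across a dose series of a flame retardant. The members were Crem, Creb1, Fos, Jun, Junb, Atf3, Egr1, Nr4a1, Ier2 and Dusp1, and every probe set that the array annotation assigns to one of these symbols was used. This gave 22 probe sets of 10 genes, of 31042 probe sets and 14217 genes tested. Crem was chosen by its lower values at the top doses, so its differences from vehicle at 541 and 54.1 mg/kg are given as a description, with no test, and so are contrasts built on those groups. Livers came from male Sprague Dawley rats, 7 weeks old at the start, which were gavaged on 5 days and killed 1 day after the last dose. The 6 groups of 6 samples received corn oil alone (vehicle) or hexachlorocyclopentadienyl-dibromocyclooctane (HCDBCO) in corn oil at daily doses of 0.05 mg/kg, 0.54 mg/kg, 5.41 mg/kg, 54.1 mg/kg or 541 mg/kg. All groups, vehicle included, thus shared the oil and the daily handling. The labels give no animal numbers, and p-values therefore cover only sample-to-sample spread, which may be technical.

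CREM and CREB1 are leucine zipper transcription factors that bind the cAMP response element, the palindrome TGACGTCA, near the start of their target genes. In liver, glucagon and adrenaline raise cAMP, protein kinase A then phosphorylates CREB1, and genes of glucose production are switched on. The Crem gene yields activator and repressor forms, and an internal promoter that itself holds cAMP response elements makes the short repressor ICER, which shuts the response down again. Fos, Jun, Junb, Egr1, Atf3, Nr4a1, Ier2 and Dusp1 are immediate early genes: growth factors, stress or cAMP switch them on within minutes, without new protein synthesis, and their mRNAs are short-lived. Serum response factor, which binds the CArG box, and CREB1 are among the factors that act at their promoters.

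Start sites were taken from RefSeq (GRCr8), as windows of 250 bases before to 50 bases after each annotated start. The table held 10 windows for 7 of the 10 genes, namely 3 for Crem, 2 for Creb1 and 1 each for Junb, Egr1, Nr4a1, Ier2 and Dusp1. Fos, Jun and Atf3 had no window, so their sites were not searched. TGACGTCA was found in 4 of the 10 windows, which belong to Crem, Ier2 and Dusp1, against 1.83% of all 33469 windows in the table. Being a palindrome, it reads alike on both strands. The shorter TGACG, searched on both strands and contained in every TGACGTCA, was in 9 of 10 windows, against 21.2% of all windows. TGACTCA, the site that Fos and Jun dimers bind, was in 0 of 10, against 4.63%, and the CArG box was in the Egr1 window alone, against 1.64%. The windows with a full cAMP response element or a CArG box are shown, with these motifs in capitals, since these sites separate the members that had a window. All 5 lie on the plus strand: Crem window 2 is chr17:58984547-58984846, Crem window 3 is chr17:58985240-58985539, Dusp1 is chr10:17184603-17184902, Ier2 is chr19:40399123-40399422 and Egr1 is chr18:26736828-26737127.
Crem window 2: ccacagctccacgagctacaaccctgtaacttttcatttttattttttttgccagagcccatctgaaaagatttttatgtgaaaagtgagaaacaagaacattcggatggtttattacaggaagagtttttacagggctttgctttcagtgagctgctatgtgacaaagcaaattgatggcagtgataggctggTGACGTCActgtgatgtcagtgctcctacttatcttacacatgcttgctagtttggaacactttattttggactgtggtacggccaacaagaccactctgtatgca
Crem window 3: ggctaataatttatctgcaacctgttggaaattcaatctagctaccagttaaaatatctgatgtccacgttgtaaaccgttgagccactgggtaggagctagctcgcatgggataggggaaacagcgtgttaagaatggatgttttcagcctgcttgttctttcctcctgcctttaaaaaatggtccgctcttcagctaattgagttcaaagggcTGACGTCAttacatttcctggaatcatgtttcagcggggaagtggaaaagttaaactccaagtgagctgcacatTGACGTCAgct
Dusp1: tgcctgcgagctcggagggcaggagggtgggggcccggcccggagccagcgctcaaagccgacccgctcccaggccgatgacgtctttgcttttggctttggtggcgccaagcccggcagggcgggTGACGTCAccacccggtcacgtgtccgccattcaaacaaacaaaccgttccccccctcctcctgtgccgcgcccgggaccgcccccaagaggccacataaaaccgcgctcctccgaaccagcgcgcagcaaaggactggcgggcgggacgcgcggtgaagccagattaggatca
Ier2: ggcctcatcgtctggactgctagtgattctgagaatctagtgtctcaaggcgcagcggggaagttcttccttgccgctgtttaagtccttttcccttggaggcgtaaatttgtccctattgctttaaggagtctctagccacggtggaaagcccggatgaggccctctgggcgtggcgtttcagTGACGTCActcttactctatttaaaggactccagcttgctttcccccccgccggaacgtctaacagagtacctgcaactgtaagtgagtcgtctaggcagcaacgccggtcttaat
Egr1: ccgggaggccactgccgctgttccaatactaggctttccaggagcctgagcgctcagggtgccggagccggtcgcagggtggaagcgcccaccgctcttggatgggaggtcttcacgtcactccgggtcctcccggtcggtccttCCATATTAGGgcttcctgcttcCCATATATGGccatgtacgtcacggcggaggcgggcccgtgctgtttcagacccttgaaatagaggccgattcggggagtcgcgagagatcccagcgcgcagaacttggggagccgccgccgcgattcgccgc
The element begins 56 bases before the start in Crem window 2, 124 bases before it in Dusp1 and 66 bases before it in Ier2. Crem window 3 holds it at 2 places, 35 bases before the start and at base 40 after it. The CArG boxes of Egr1 begin 105 and 83 bases before the start. A match describes these letters only, and binding was not measured here.

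Levels are log2 values as the authors deposited them, so each unit of difference multiplies the level by 2. The array of the fifth 54.1 mg/kg sample stood apart, with a lower quartile of 3.79 and an upper quartile of 6.94, against 3.62 to 3.72 and 7.03 to 7.13 on the other 35 arrays. It stayed in the fit, and differences at 54.1 mg/kg without it are given for Crem 1378925_at, Jun, Atf3, Egr1 and Dusp1.

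All 6 Crem probe sets were lower than vehicle at each of the 5 doses, and lowest at 54.1 or 541 mg/kg. The log2 differences at 54.1 mg/kg ran from -0.74 to -0.25 and those at 541 mg/kg from -0.63 to -0.18, which is a level 1.67 to 1.19 times lower at 54.1 mg/kg and 1.55 to 1.13 times lower at 541 mg/kg. The largest difference belonged to 1393550_at at both doses. Over all probe sets the median difference was 0.01 at either dose, and 17.2% of all probe sets had a mean below vehicle at all 5 doses. Fewer cells that contain a transcript and less of it per cell cannot be told apart in whole liver RNA.

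For 1378925_at, the Crem probe set with the highest mean level, the lowest, median and highest log2 values were 9.72, 9.96 and 10.02 at 54.1 mg/kg and 9.69, 10.01 and 10.11 at 541 mg/kg, against 10.10, 10.35 and 10.47 in vehicle. Every sample at 54.1 mg/kg lay below every vehicle sample, and 5 of 6 samples did so at 541 mg/kg, where the highest treated sample just passed the lowest vehicle sample. The differences were -0.38 ± 0.08 at 54.1 mg/kg and -0.35 ± 0.08 at 541 mg/kg (limma's standard error, n = 6 per group). Without the fifth 54.1 mg/kg sample the difference there was -0.39.

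For 1393550_at the values were 6.24, 6.52 and 6.67 at 54.1 mg/kg and 6.28, 6.48 and 7.17 at 541 mg/kg, against 6.90, 7.21 and 7.56 in vehicle. The groups were again apart at 54.1 mg/kg, and at 541 mg/kg 1 sample reached into the middle of the vehicle range. The differences were -0.74 ± 0.14 and -0.63 ± 0.14. For 1369737_at the values were 7.77, 7.90 and 8.29 at 54.1 mg/kg and 7.78, 8.12 and 8.32 at 541 mg/kg, against 8.30, 8.47 and 8.77 in vehicle, with differences of -0.53 ± 0.10 and -0.41 ± 0.10. This probe set too was separate from vehicle at 54.1 mg/kg, by a narrow gap, and overlapped with it at 541 mg/kg.

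The other Crem probe sets differed less. 1387714_at was 7.04, 7.14 and 7.21 at 54.1 mg/kg and 6.78, 7.17 and 7.37 at 541 mg/kg, against 7.32, 7.48 and 7.56 in vehicle. 1369738_s_at was 8.70, 8.82 and 9.01 at 54.1 mg/kg and 8.78, 8.90 and 9.15 at 541 mg/kg, against 9.03, 9.14 and 9.27 in vehicle. Both were apart from vehicle at 54.1 mg/kg and overlapped with it at 541 mg/kg. 1396545_at overlapped with vehicle at every dose, with 6.03, 6.30 and 6.45 at 54.1 mg/kg and 6.18, 6.30 and 6.54 at 541 mg/kg, against 6.10, 6.54 and 6.76 in vehicle. Its differences were -0.25 ± 0.12 at 54.1 mg/kg and -0.18 ± 0.12 at 541 mg/kg.

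**Figure D1:**
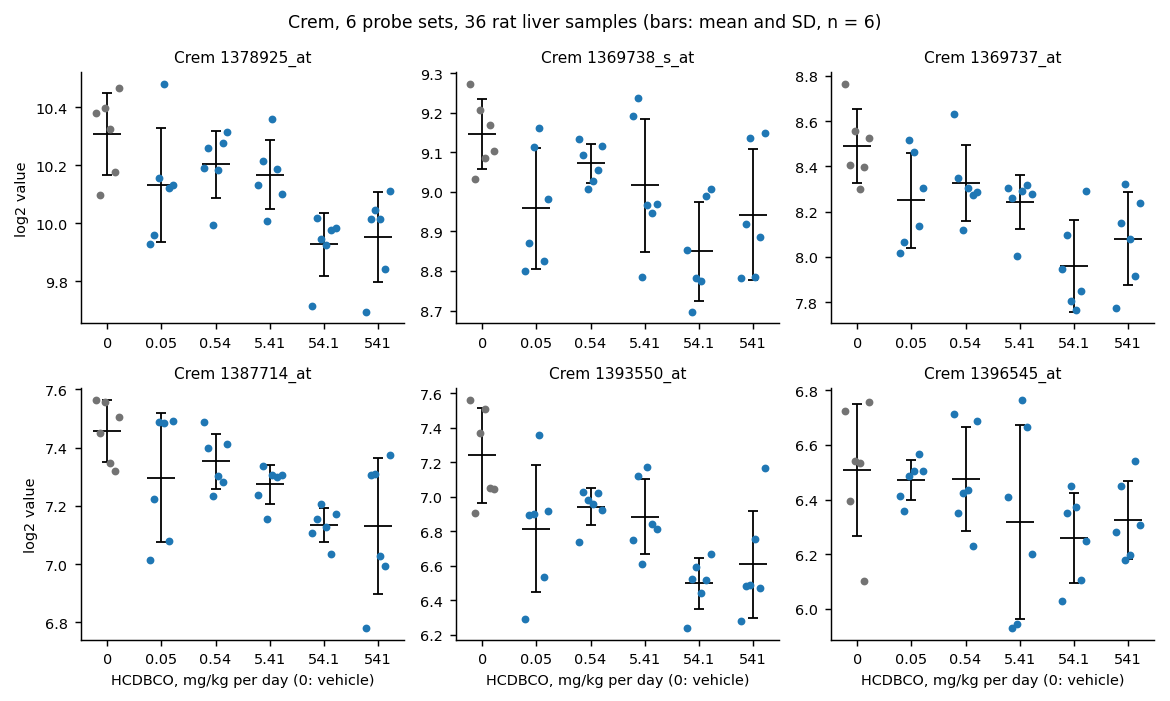
Log2 value of the 6 Crem probe sets (y axis) by HCDBCO dose in mg/kg per day (x axis, 0 is vehicle, in grey). Points are samples and bars the mean and SD of 6, and in 5 of the 6 panels every sample at 54.1 mg/kg lies below every vehicle sample, while at 541 mg/kg all 6 panels overlap with vehicle.

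Thus 5 of 6 Crem probe sets were wholly below vehicle at 54.1 mg/kg, where 0.37% of all probe sets were, and 0 of 6 were at 541 mg/kg, where 0.351% were. These contrasts chose Crem, so nothing is read from the counts. Between the top doses Crem differed little: 541 minus 54.1 mg/kg lay between -0.003 and 0.12 over the 6 probe sets. The 95% interval for 1378925_at ran from -0.14 to 0.19.

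At the 3 lowest doses Crem was lower than vehicle by less than at the top doses, except in 1396545_at, whose difference of -0.19 at 5.41 mg/kg was close to its -0.18 at 541 mg/kg. The differences over the 6 probe sets were -0.43 to -0.04 at 0.05 mg/kg, -0.30 to -0.03 at 0.54 mg/kg and -0.36 to -0.13 at 5.41 mg/kg. None of the 18 passed a false discovery rate (FDR) of 5% in limma's fit across all probe sets, with a smallest adjusted p of 0.977, and the fit called 0% of all probe sets at these doses. An unadjusted p under 0.05 was found for 4 of 6 at 0.05 mg/kg, 1 of 6 at 0.54 mg/kg and 3 of 6 at 5.41 mg/kg, against 3.02%, 4.18% and 4.83% of all probe sets. These comparisons use the same vehicle samples as those that chose Crem, which tilts them towards lower values and small p at every dose. The 6 probe sets also measure 1 gene and are not independent, so nothing is read from these counts. Against the 3 lowest doses in place of vehicle, the 6 probe sets had differences of -0.38 to -0.16 at 54.1 mg/kg and -0.27 to -0.07 at 541 mg/kg, again a description, since these are the top-dose values that chose Crem.

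In order of its group means, 1393550_at stood at 7.24 ± 0.28 in vehicle, 6.94 ± 0.11 at 0.54 mg/kg, 6.88 ± 0.22 at 5.41 mg/kg, 6.82 ± 0.37 at 0.05 mg/kg, 6.61 ± 0.31 at 541 mg/kg and 6.50 ± 0.15 at 54.1 mg/kg (SD, n = 6 each). Only the step between vehicle and 0.54 mg/kg, 1.17 times the SD within groups, exceeded that spread. That SD is the spread of single samples, and the standard error of a difference between group means was smaller, at 0.14 for 1393550_at. The order of the means did not follow the dose among the 3 lowest doses. In 1378925_at the only step above the SD within groups lay elsewhere, between 0.05 and 541 mg/kg, at 1.25 times the SD. Its step between vehicle and 0.54 mg/kg was 0.73 times the SD. The remaining Crem probe sets had no step above their SD. The Crem probe sets varied together from sample to sample to different extents. After the group means were taken out, r between pairs of them ran from -0.04 to 0.77 over 36 samples. The lowest values all involved 1396545_at, which reached r = 0.38 at most, and without it the range was 0.43 to 0.77.

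The other 16 probe sets, of 9 genes, passed the FDR in no comparison. This holds for each dose against vehicle, for 541 against 54.1 mg/kg, and for limma's F-test over the 6 group means. The fit called 0.155% of all probe sets at 541 mg/kg and 0.0741% at 54.1 mg/kg, 0% at each lower dose, 0.00322% between the top doses and 0.0999% by the F-test. At an unadjusted p under 0.05 there were 1 of 16 at 541 mg/kg, 6 of 16 at 54.1 mg/kg, 2 of 16 at 5.41 mg/kg, 3 of 16 at 0.54 mg/kg and 2 of 16 at 0.05 mg/kg. The shares over all probe sets were 9.07%, 9.2%, 4.83%, 4.18% and 3.02% in the same order. Between the top doses 1 of 16 had an unadjusted p under 0.05, against 4.76% of all probe sets, and by the F-test 2 of 16 did, against 5.99%. A mean below vehicle at all 5 doses was found for 7 of 16 and a mean above it for 6 of 16, against 17.2% and 20.3% of all probe sets, and these 5 comparisons share the vehicle samples.

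Creb1, the constitutive activator of the pair, passed the FDR at no dose. Its probe set with the highest mean, 1375655_at, had differences between -0.05 and 0.08 over the 5 doses. It was 6.37, 6.63 and 6.84 at 54.1 mg/kg and 6.57, 6.73 and 6.82 at 541 mg/kg, against 6.50, 6.65 and 6.76 in vehicle. The groups overlapped fully. The 95% interval of the difference ran from -0.16 to 0.14 at 54.1 mg/kg and from -0.07 to 0.23 at 541 mg/kg. The other probe sets, 1369708_a_at, 1377913_at and 1371291_at, had differences between -0.10 and 0.10 at the top doses. Below them, 1377913_at had differences of 0.19 ± 0.09 at 0.05 mg/kg, with an unadjusted p of 0.038 and no pass after adjustment over all probe sets, and 0.16 ± 0.09 at 0.54 mg/kg. All 3 had a mean level below 5.11, the median over all probe sets, and could not be set against background here. Pairs of Creb1 probe sets varied together with r of -0.17 to 0.43.

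Fos, which pairs with Jun proteins in the AP-1 factor, had a mean level of 4.65 in 1371283_at, also below that median. It was 4.64, 4.70 and 4.75 at 54.1 mg/kg and 4.39, 4.77 and 4.88 at 541 mg/kg, against 4.51, 4.59 and 4.66 in vehicle. Differences were 0.11 ± 0.07 at 54.1 mg/kg and again 0.11 ± 0.07 at 541 mg/kg (limma's adjusted p = 0.67 and 0.689). The second Fos probe set, 1375043_at, was near 3 in most samples, with single values up to 4.80 at 0.05 mg/kg, 4.48 at 0.54 mg/kg and 4.34 at 541 mg/kg. Its deviations ran against those of the first with r = -0.23, so the array gave no common reading of Fos.

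Jun, the main partner of Fos, was lower than vehicle at all 5 doses in all 3 of its probe sets. For 1389528_s_at the values were 7.93, 8.24 and 9.15 at 54.1 mg/kg and 8.31, 8.60 and 9.43 at 541 mg/kg, against 8.36, 9.05 and 9.38 in vehicle. In 4 of 6 samples at 54.1 mg/kg Jun was below the lowest vehicle sample, yet the groups overlapped. The difference at 54.1 mg/kg was -0.59 ± 0.28 (limma's adjusted p = 0.511), and 1374404_at gave -0.58 ± 0.25 while 1369788_s_at gave -0.33 ± 0.22. Without the fifth 54.1 mg/kg sample the first was -0.74. At 541 mg/kg the 3 probe sets lay between -0.30 and -0.20.

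Junb, an AP-1 member that can oppose Jun, had a mean above vehicle at all 5 doses, with the highest in the middle of the series. Its group means were 6.40 ± 0.20 in vehicle, 6.55 ± 0.27 at 0.05 mg/kg, 6.71 ± 0.21 at 0.54 mg/kg, 6.82 ± 0.18 at 5.41 mg/kg, 6.57 ± 0.45 at 54.1 mg/kg and 6.55 ± 0.16 at 541 mg/kg (SD, n = 6 each). At 5.41 mg/kg 4 of 6 samples exceeded the highest vehicle sample. The difference there, 0.42 ± 0.14, had an unadjusted p of 0.00628 and did not pass after adjustment over all probe sets (limma's adjusted p = 0.977).

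Atf3, a stress-induced repressor of the ATF family, spread widely in every group. It was 4.54, 4.85 and 5.74 at 54.1 mg/kg and 4.48, 4.95 and 5.55 at 541 mg/kg, against 4.63, 5.21 and 5.92 in vehicle. The groups overlapped over most of their range. The differences were -0.33 ± 0.28 at 54.1 mg/kg and -0.23 ± 0.28 at 541 mg/kg (limma's adjusted p = 0.774 and 0.863). At 54.1 mg/kg it was -0.49 without the fifth treated sample and -0.19 without the fourth vehicle sample, and at 541 mg/kg it was -0.10 without that vehicle sample.

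Egr1, a zinc finger factor induced through serum response factor, had the largest difference of any member, and it was highest at 54.1 mg/kg and not at the top dose. The lowest, median and highest values were 7.91, 9.82 and 10.26 at 54.1 mg/kg and 7.81, 8.42 and 8.73 at 541 mg/kg, against 6.96, 7.94 and 9.06 in vehicle. At 54.1 mg/kg 4 of 6 samples exceeded the highest vehicle sample, while at 541 mg/kg all 6 lay within the vehicle range. The difference at 54.1 mg/kg was 1.55 ± 0.41, or 2.92-fold, with an unadjusted p of 0.000579, and did not pass (limma's adjusted p = 0.155). Without the fifth 54.1 mg/kg sample, the lowest of that group for Egr1, it was 1.86 and passed (limma's adjusted p = 0.0452), and with limma's array quality weights it was 1.65 and passed (adjusted p = 0.0486). This is the sample whose array stood apart. Against the 3 lowest doses in place of vehicle, Egr1 at 54.1 mg/kg differed by only 0.39 ± 0.33 (limma's adjusted p = 0.906).

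Egr1 was also above vehicle at the lower doses, by 0.96 at 0.05 mg/kg, 1.17 at 0.54 mg/kg and 1.34 at 5.41 mg/kg. For Egr1 the unadjusted p in limma was 0.0243, 0.00722 and 0.00241 in the same order, and none passed after adjustment. Its group means were 7.91 ± 0.73 in vehicle, 8.88 ± 0.59 at 0.05 mg/kg, 9.08 ± 1.00 at 0.54 mg/kg, 9.25 ± 0.89 at 5.41 mg/kg, 9.46 ± 0.87 at 54.1 mg/kg and 8.34 ± 0.34 at 541 mg/kg (SD, n = 6 each). The mean was higher at each successive dose up to 54.1 mg/kg and lower again at 541 mg/kg. No step between neighbours in the order of means exceeded the SD within groups of 0.77. That SD is the spread of single samples, and the standard error of a difference between group means was smaller, at 0.41. At 541 minus 54.1 mg/kg Egr1 differed by -1.12 ± 0.41, with an unadjusted p of 0.00946 and no pass after adjustment (limma's adjusted p = 0.969). Its limma F-test over all groups gave an unadjusted p of 0.00476, the smallest of the 16 probe sets, and an adjusted p of 0.451. Actin's 3′ minus 5′ difference, a measure of RNA integrity, varied with Egr1 from sample to sample within groups with r = 0.45, and its part in the result was not tested.

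Nr4a1, an orphan nuclear receptor that cAMP induces in mouse liver, had a mean level of 4.31, below the median over all probe sets. It was 4.26, 4.34 and 4.53 at 54.1 mg/kg and 4.26, 4.34 and 4.81 at 541 mg/kg, against 3.92, 4.13 and 4.36 in vehicle. All 12 treated samples of the top doses were above the vehicle mean, and 2 of 6 at each dose exceeded the highest vehicle sample. The difference at 541 mg/kg was 0.29 ± 0.08, with an unadjusted p of 0.000743, and did not pass (limma's adjusted p = 0.145). At 54.1 mg/kg it was 0.21 ± 0.08 (limma's adjusted p = 0.391). The difference at 0.54 mg/kg was as large, 0.22 ± 0.08, with an unadjusted p of 0.00813, and did not pass (limma's adjusted p = 0.999). All 6 samples at 0.54 mg/kg were above the vehicle mean, and 3 of 6 exceeded the highest vehicle sample. At 5.41 and 0.05 mg/kg the differences were 0.10 ± 0.08 and 0.11 ± 0.08. The lower quartile of an array's values, which follows its dimmest probe sets, varied with Nr4a1 within groups with r = 0.53, and its part in the result was not tested.

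Ier2, a nuclear protein of the early growth response, was lower at the top doses by a similar amount, -0.29 ± 0.17 at 54.1 mg/kg and -0.31 ± 0.17 at 541 mg/kg (limma's adjusted p = 0.626 and 0.602). Its values were 7.93, 8.44 and 8.74 at 54.1 mg/kg and 8.07, 8.40 and 8.78 at 541 mg/kg, against 8.59, 8.72 and 8.93 in vehicle. The vehicle samples were close together, and 4 of 6 and 5 of 6 treated samples lay below all of them. The same was seen in 4 of 6 samples at 5.41 mg/kg and 4 of 6 at 0.54 mg/kg, where the differences were only -0.001 and -0.11. At 0.05 mg/kg it was 2 of 6, with a difference of -0.01. These counts are thus not particular to the top doses.

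Dusp1, the phosphatase that switches off MAP kinases, was lower than vehicle at all 5 doses in both its probe sets. For 1368146_at the values were 8.04, 9.53 and 10.25 at 54.1 mg/kg and 8.86, 9.89 and 10.01 at 541 mg/kg, against 9.70, 9.99 and 10.56 in vehicle. In 5 of 6 samples at 54.1 mg/kg Dusp1 was below the lowest vehicle sample, and the remaining sample, within the vehicle range, was the fifth, whose array stood apart. The same was seen in 4 of 6 samples at 0.54 mg/kg, where the difference was -0.49 ± 0.27, and in 3 of 6 at 0.05 mg/kg. At 5.41 and 541 mg/kg it was 2 of 6 each. The difference at 54.1 mg/kg was -0.70 ± 0.27 in this probe set and -0.90 ± 0.34 in 1368147_at (limma's adjusted p = 0.412 and 0.397). Without the fifth 54.1 mg/kg sample that of 1368146_at was -0.89, and without the second, the lowest of the group, it was -0.44. At 541 mg/kg the differences were -0.34 ± 0.27 and -0.55 ± 0.34 (limma's adjusted p = 0.759 and 0.67). Without the fourth 541 mg/kg sample that of 1368146_at was -0.18, and against the 3 lowest doses it was -0.005. At 54.1 mg/kg against the 3 lowest doses 1368146_at was at -0.37 ± 0.22 (limma's adjusted p = 0.866).

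**Figure D2:**
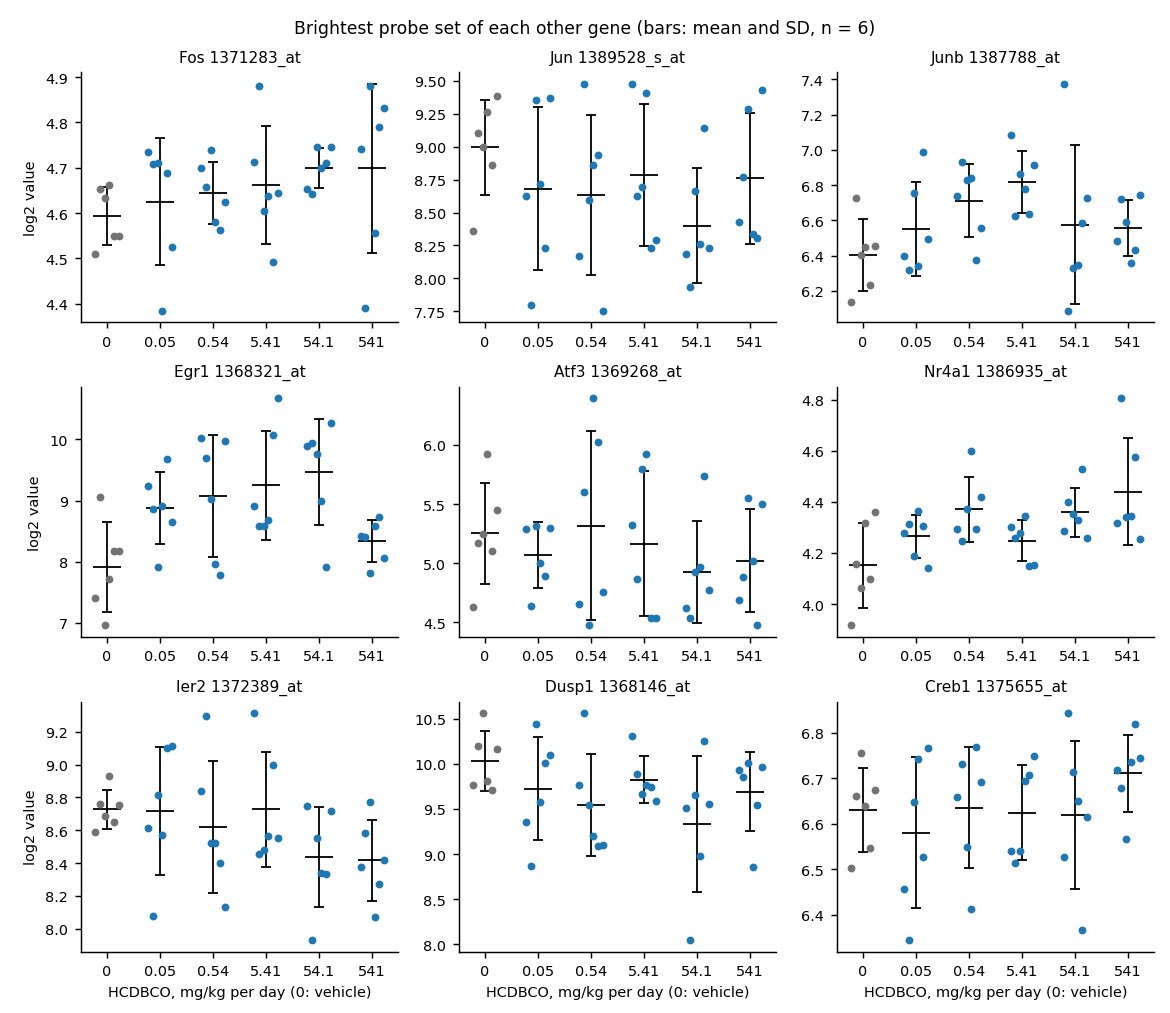
Log2 value (y axis) of the probe set with the highest mean of each of the 9 other genes, by HCDBCO dose in mg/kg per day (x axis, 0 is vehicle, in grey). Points are samples and bars the mean and SD of 6. Every panel overlaps with vehicle at every dose, and Egr1 is highest at 54.1 mg/kg, with a mean of 9.46 against 7.91 in vehicle.

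**Figure D3:**
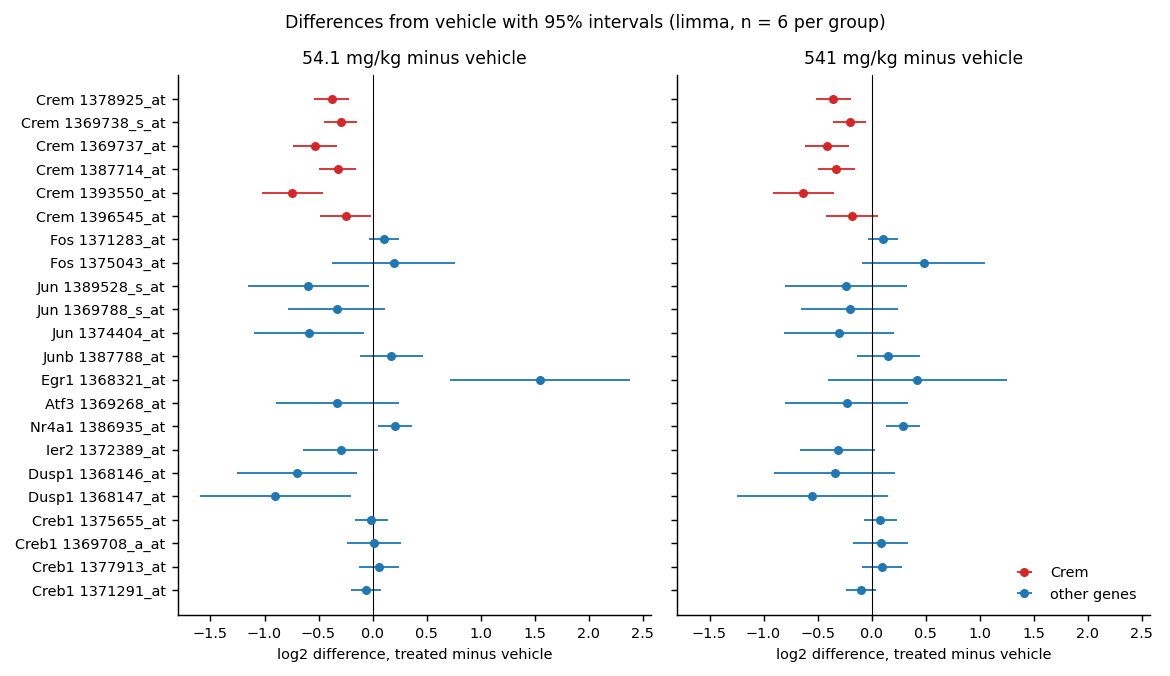
Log2 difference from vehicle (x axis) of all 22 probe sets (y axis) at 54.1 mg/kg (left) and 541 mg/kg (right), with limma's 95% intervals, n = 6 per group. Crem, in red, is shown as a description; its 6 probe sets lie below 0 in both panels, and Egr1 is the farthest to the right, at 1.55 for 54.1 mg/kg.

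Samples of one dose group differed more in several immediate early genes than in nearly all other transcripts. The SD within groups had a median of 0.14 over all probe sets and a 99th percentile of 0.458. Of the 16 probe sets other than Crem, 7 were above that percentile, from 5 genes. Among probe sets with a mean above the median level the 99th percentile was 0.534, and 2 of the 10 such probe sets, Egr1 and Dusp1 1368147_at, were above it. Egr1 had an SD of 0.769, Dusp1 0.514 and 0.646, Atf3 0.523, Jun 0.518 in 1389528_s_at and 0.469 in 1374404_at, and Fos 0.528 in 1375043_at. Crem had 0 of 6 above it, with an SD of 0.132 to 0.255. Creb1 1375655_at, at 0.128, was below the median. The standard error of a difference was accordingly 0.41 for Egr1, against a median of 0.0799 over all probe sets.

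**Figure D4:**
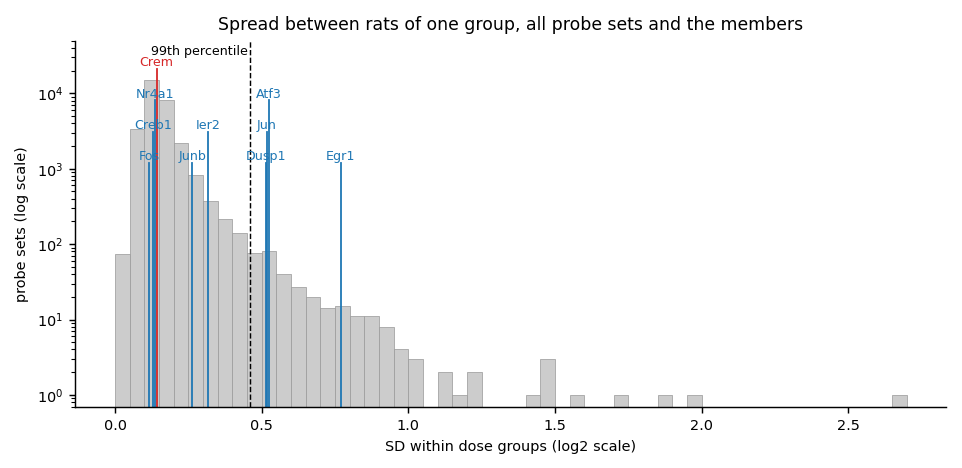
Number of probe sets (y axis, log scale) by their SD within dose groups (x axis, log2 scale), over all 31042. Vertical lines mark the members' probe sets with the highest mean, Crem in red, and the dashed line is the 99th percentile, 0.458; Egr1, Atf3, Jun and Dusp1 lie beyond it.

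Some of the members also varied together from sample to sample within a dose. Deviations from the group mean were correlated over 36 samples for all 45 pairs of genes, with p-values from 100000 permutations of samples within groups, adjusted by Benjamini-Hochberg over the 45 pairs. The samples share the array and its normalization. By Pearson's r 8 pairs passed, 6 of them positive and 2 negative, and 7 of these 8 also passed by Spearman's rho. The share of passing pairs among other genes was not examined, so the count is not read as particular to the members. Jun and Atf3 had r = 0.74 and rho = 0.81, and Ier2 and Dusp1 had r = 0.73 and rho = 0.73. For both the permutation p was 1e-05, the smallest that 100000 permutations give (adjusted p = 0.000225). Without the 2 samples farthest from the median, r was 0.75 for Jun and Atf3 and 0.67 for Ier2 and Dusp1.

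The other positive pairs lay among Jun, Junb, Ier2 and Dusp1. Jun and Dusp1 had r = 0.63 and rho = 0.57 (permutation p = 0.00017 and 0.00115, adjusted p = 0.00255 and 0.0104; r = 0.54 without the 2 farthest samples). Junb and Ier2 had r = 0.60 and rho = 0.62 (permutation p = 0.00029 and 0.00027, adjusted p = 0.00326 and 0.00405; r = 0.57). Junb and Dusp1 had r = 0.57 and rho = 0.58 (permutation p = 0.00562 and 0.00142, adjusted p = 0.0346 and 0.0106; r = 0.56). Jun and Ier2 had r = 0.51 and rho = 0.42 (permutation p = 0.00616 and 0.0234, adjusted p = 0.0346 and 0.132). This pair passed by r alone, and its r was 0.37 without the 2 farthest samples, so the relation rests in part on them.

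Egr1 ran against Jun and Atf3, so the samples with the most Egr1 in a group tended to have the least of these. Egr1 and Atf3 had r = -0.64 and rho = -0.62 (permutation p = 0.00054 and 0.00092, adjusted p = 0.00486 and 0.0104; r = -0.57 without the 2 farthest samples). Jun and Egr1 had r = -0.49 and rho = -0.51 (permutation p = 0.00506 and 0.00495, adjusted p = 0.0346 and 0.0318; r = -0.60). Actin's 3′ minus 5′ difference moved with several of these genes, at r = 0.45 for Egr1, -0.48 for Junb, -0.45 for Dusp1, -0.39 for Jun, -0.38 for Ier2, -0.27 for Atf3 and 0.22 for Crem, and its part in the pairs was not tested. Crem was in none of the pairs that passed, and its r with Dusp1 and Ier2 was 0.06 and 0.00. Its largest r was that with Creb1, at r = 0.38 and rho = 0.39 (permutation p = 0.0399 and 0.0268, adjusted p = 0.199 and 0.134).

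**Figure D5:**
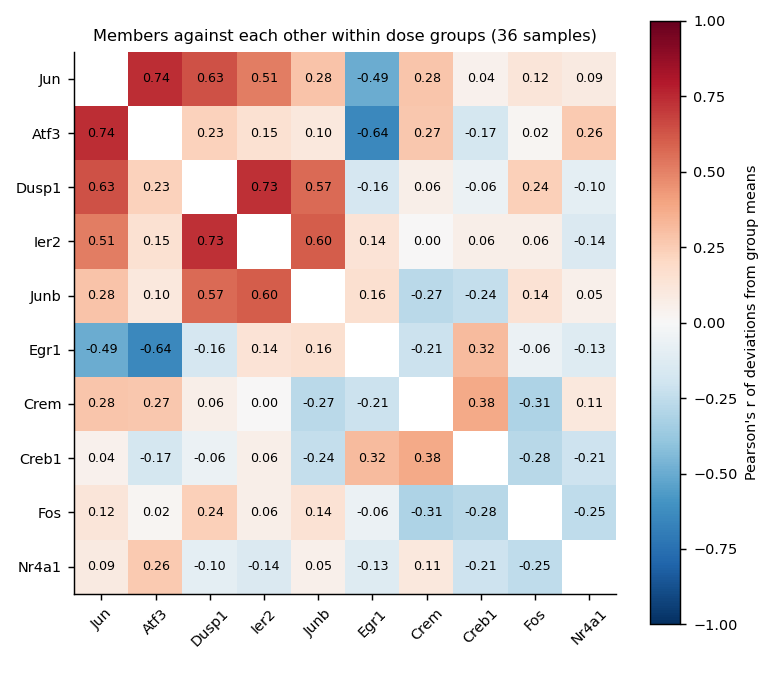
Pearson's r between members (rows and columns), each by its probe set with the highest mean, computed on deviations from group means over 36 samples. Red is positive and blue negative; Jun with Atf3 (0.74) and Ier2 with Dusp1 (0.73) are highest and Egr1 with Atf3 (-0.64) is lowest.

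Genes most like Crem over the 36 samples were sought among 12514 probe sets of 1 symbol with a mean above the median. These are descriptions over samples that share the dose groups. For 1378925_at they were Stx18, a syntaxin, with r = 0.75, Ahctf1, a nuclear pore protein, with 0.72, Xbp1, a factor of the unfolded protein response, with 0.72, Zranb1 with 0.71 and Dbr1, the lariat debranching enzyme, with 0.71. After the group means were taken out, r was 0.81 for Stx18 and between 0.54 and 0.60 for the other 4. For 1393550_at they were Ammecr1l and Atxn1l (both 0.78), Zfp830 (0.76), Sar1a, a GTPase of vesicle budding (0.75), and Ahctf1 (0.75), with r of 0.62 to 0.71 after the group means were taken out. Ahctf1 was named by both, and its log2 difference was -0.56 at 541 mg/kg and -0.47 at 54.1 mg/kg. For Fos 1371283_at the most alike were Rhbdd3 (0.68), Hook2 (0.64), C20h6orf136 (0.64), Sugct (0.64) and Dcaf11 (0.63). No member was among these genes.

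The genes around the members in the pathway gave no calls. Of 45 further immediate early genes measured, 0 rose and 0 fell at 541 or 54.1 mg/kg in limma at the FDR, and 5 and 7 had an unadjusted p under 0.05. Over all probe sets the FDR was passed by 0.155% at 541 mg/kg and 0.0741% at 54.1 mg/kg, and an unadjusted p under 0.05 was found for 9.07% and 9.2%, the shares against which this and the next lists are set. Their median difference was -0.02 at 541 mg/kg and -0.04 at 54.1 mg/kg, beside 0.01 over all genes at either dose. Sgk1, a kinase also induced by glucocorticoids, had the smallest p of them at 541 mg/kg, with -1.25 ± 0.40 there (limma's adjusted p = 0.229) and -0.88 ± 0.40 at 54.1 mg/kg. Myc, a growth-promoting transcription factor, was at 0.87 ± 0.35 and 0.95 ± 0.35. Ppp1r15a, the stress-induced phosphatase regulator, was at -0.26 ± 0.09 and -0.22 ± 0.09, and Mcl1, a survival factor, at -0.24 ± 0.09 and -0.13 ± 0.09.

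Of 21 CREB and ATF family members and coactivators, 0 rose and 0 fell at either dose, with 0 and 2 at an unadjusted p under 0.05 (9.07% and 9.2% of all probe sets) and medians of -0.02 at 541 mg/kg and -0.01 at 54.1 mg/kg. Atf4, of the integrated stress response, was at -0.36 ± 0.20 at 541 mg/kg (limma's adjusted p = 0.614) and -0.35 ± 0.20 at 54.1 mg/kg. Crebzf, Creb3 and Creb5 followed with -0.15, 0.12 and 0.10 at 541 mg/kg, and the 5 dimmer probe sets of Crebzf disagreed in sign, from -0.27 ± 0.07 in 1391454_at (limma's adjusted p = 0.103) to 0.15 ± 0.08 in 1377466_a_at. Of 37 genes of cAMP signalling 0 rose and 0 fell, and 3 at 541 mg/kg and 5 at 54.1 mg/kg had an unadjusted p under 0.05 (9.07% and 9.2% of all probe sets), with medians of -0.01 and 0.001. Rapgef4, a cAMP-activated exchange factor, was at -0.34 ± 0.14 and -0.36 ± 0.14, Adora2b, an adenosine receptor, at -0.62 ± 0.29 and -0.37 ± 0.29, Pde4a, a cAMP phosphodiesterase, at 0.16 ± 0.08 and 0.08 ± 0.08, and Prkaca, the catalytic subunit of protein kinase A, at 0.13 ± 0.07 and 0.00 ± 0.07.

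Of 12 CREB target genes of liver 0 rose and 0 fell, and 4 at 541 mg/kg and 2 at 54.1 mg/kg had an unadjusted p under 0.05, beside 9.07% and 9.2% of all probe sets. In these the mean was below vehicle, as it was in 9 of 12 genes at either dose. Their median difference was -0.27 at 541 mg/kg and -0.09 at 54.1 mg/kg, beside 0.01 over all genes at either dose. Sik1, a kinase that restrains CREB coactivators, was at -0.28 ± 0.10 at 541 mg/kg (limma's adjusted p = 0.289) and -0.06 ± 0.10 at 54.1 mg/kg, and its dimmer probe set 1368597_at was at 0.06 ± 0.07 at 541 mg/kg. Got1 and Tat, both aminotransferases, were at -0.29 ± 0.11 and -0.47 ± 0.22 at 541 mg/kg, and Id1, an inhibitor of helix-loop-helix factors, at -0.38 ± 0.16. Of 15 genes of the serum response and MAP kinase route 0 rose and 0 fell, and 4 and 3 had an unadjusted p under 0.05 (9.07% and 9.2% of all probe sets), with medians of -0.05 at 541 mg/kg and -0.03 at 54.1 mg/kg. Elk4, a partner of serum response factor, was at -0.19 ± 0.06 at 541 mg/kg (limma's adjusted p = 0.273), Mapk14 at -0.23 ± 0.10, Srf itself at -0.24 ± 0.11 and Mapkapk2 at -0.20 ± 0.08. The dimmer probe sets differed less at 541 mg/kg. For Srf they were at -0.05 ± 0.06 in 1374829_at and -0.07 ± 0.06 in 1395378_at. For Elk4 they were at -0.16 ± 0.09 in 1372204_at and -0.03 ± 0.07 in 1396356_at.

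Set against the label of liver, all 9 hepatocyte markers measured were above the median level of 5.11. Their mean log2 level was 13.57 to 13.65 in the 541 mg/kg samples, against 13.61 to 13.72 in vehicle; 7 of 9 had a lower mean at 541 mg/kg, 0 of 9 passed the FDR, and their part in the results was not tested. T cell, B cell and neutrophil markers had mean levels of 4.58, 4.42 and 4.11 in vehicle, below that median. All 8 endothelial markers measured had a lower mean at 541 mg/kg, with a mean level of 7.86 to 8.02, against 7.93 to 8.28 in vehicle. Of these, 0 of 8 passed the FDR, against 0.155% of all probe sets. An unadjusted p under 0.05 in limma was found for 3 of 8, against 9.07%. In 541 against 54.1 mg/kg it was found for 4 of 8, all lower at 541 mg/kg, against 4.76%. The part of these markers in the results at 541 mg/kg was not tested. At 54.1 mg/kg 2 of these 8 had a lower mean. Actin's 3′ minus 5′ difference was 1.18 ± 0.09 at 541 mg/kg, 1.14 ± 0.11 at 54.1 mg/kg and 1.13 ± 0.08 in vehicle (SD, n = 6 each).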

How the data were processed

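The values are log2 expression values deposited by the authors, 1 per probe set and array, from 36 single-channel Affymetrix 3′ arrays, made with RMA and the affy package per the submitters' processing notes, which give no versions. They ran from 1.94 to 14.7, and array medians from 5.06 to 5.16. Raw intensities were not used here, so no probe set could be called above background and the base of the logarithm rests on RMA's usual output. Of 31099 probe sets, 57 controls were left out. The annotation gave 1 symbol for 20826 of the rest, several for 436 and none for 9780; 20758 Entrez IDs were in RefSeq's GRCr8 table, which changed 0 symbols. Groups came from the sample titles. A 1-way model of 6 group means was fitted over 36 samples with limma 3.58.1 in R 4.3.3 (lmFit, eBayes), two-sided, with Benjamini-Hochberg adjustment over 31042 probe sets at an FDR of 5%. The design text names another R package, which was not used here. Differences are treated minus vehicle, and their ± is the standard error from limma. Every probe set of a member was reported; the one with the highest mean stood for its gene in counts of lists, pairs and figures. From each list the 4 genes with the smallest p at 541 mg/kg were named, and the 5 genes with the highest r for likeness. Members and lists were chosen with earlier results of these data known, and the pairs and the spread were examined after the values had been seen. The fit was tested on simulated data. Alternatives were a filter on dim probe sets, array weights, only the groups compared, median centring, a trended robust variance, the replicate number as a block, leaving out each sample, another probe set summary and the 3 lowest doses in place of vehicle. The titles do not say whether same-numbered samples were handled together. Deviations of same-numbered samples in different groups correlated with a median r of 0.01 over 90 pairs, with 24 over 0.1. For differently numbered samples the median was -0.004 over 450 pairs, with 96 over 0.1. Actin's 3′ minus 5′ difference was lower in the first sample than in the second in every group. At 54.1 mg/kg these were 0.97 and 1.29. A common handling by number was not tested beyond the block fit. The number of arrays limits the precision.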

Additional observations from a re-analysis of the deposited data

Results flagged for a closer look

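Within a group, 1 sample lay far from the others, by Dixon's ratio at the 95% level, in 7 of 132 combinations of group and probe set, and chance gives about 5%. Of these, 3 were in Crem. In 1378925_at the first 54.1 mg/kg sample was lowest at 9.72, with the next at 9.93. In 1369737_at the third 5.41 mg/kg sample was lowest at 8.01, with the next at 8.26, and in 1393550_at the first 0.54 mg/kg sample was lowest at 6.74, with the next at 6.93. The Fos probe set 1375043_at reached 4.48 in the fourth 0.54 mg/kg sample, while the other 5 lay between 2.49 and 2.96. Atf3 was highest, at 5.74, in the fifth 54.1 mg/kg sample, whose array stood apart, with the next at 4.97. In Creb1, 1377913_at was lowest at 2.88 in the third 0.54 mg/kg sample and 1371291_at highest at 2.72 in the first 54.1 mg/kg sample.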

How the results depend on the processing

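The count of probe sets other than Crem past the FDR stayed at 0 for each dose against vehicle, for 541 against 54.1 mg/kg and for the F-test under the filter on dim probe sets, the restriction to the groups compared, median centring, the trended robust variance, the replicate block and every left-out sample, except at 54.1 mg/kg, where it was 1, Egr1, with array weights and without the fifth 54.1 mg/kg sample (range over left-out samples 0 to 1). Egr1 at 54.1 mg/kg was then 1.65 (adjusted p = 0.0486) and 1.86 (adjusted p = 0.0452). Over left-out samples it ran from 1.36 to 1.86, and against the 3 lowest doses it was 0.39 (limma's adjusted p = 0.906). The cause was not tested. Under the replicate block Egr1 at 54.1 mg/kg had an adjusted p of 0.126 and Nr4a1 at 541 mg/kg 0.134, and 0 probe sets other than Crem passed. Over all probe sets the block gave 44 calls at 541 mg/kg and 28 at 54.1 mg/kg, beside 48 and 23. Set against the 3 lowest doses in place of vehicle, the sign turned for Jun at 541 mg/kg (0.058), Junb at 541 mg/kg (-0.14) and 54.1 mg/kg (-0.12) and Egr1 at 541 mg/kg (-0.73), for which the cause was not tested. Creb1 at 54.1 mg/kg, at -0.01, changed sign under array weights (0.043), against the 3 lowest doses (0.0056), as the mean of its probe sets (0.00059) and over left-out samples (-0.056 to 0.040). For Crem 1378925_at, leaving out single samples gave -0.42 to -0.34 at 54.1 mg/kg and -0.39 to -0.30 at 541 mg/kg. Leaving out single samples also moved some differences that did not pass: Junb 0.013 to 0.27, Ier2 -0.35 to -0.19, Jun -0.74 to -0.50, Atf3 -0.49 to -0.19 and Dusp1 -0.89 to -0.44 at 54.1 mg/kg, and Egr1 0.23 to 0.65, Junb 0.10 to 0.22, Jun -0.37 to -0.15, Atf3 -0.36 to -0.10, Dusp1 -0.41 to -0.18 and Fos 0.069 to 0.17 at 541 mg/kg. Fos and Nr4a1 had no value under the filter on dim probe sets, which leaves them out.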
